A study of Mus musculus with 25 samples.

Results

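The pentose phosphate pathway was followed through 10 genes: G6pdx, H6pd, Pgls and Pgd of its oxidative branch, Tkt, Taldo1, Rpia and Rpe of its non-oxidative branch, and Prps1 and Prps2, whose enzymes use its product. Their probes were found by gene symbol alone, with no measured value, but the list was chosen with earlier results of these data known. Of 45281 array probes 13 carried these symbols, 3 for Tkt, 2 for Taldo1 and 1 for each other gene. Of the 10 genes 9 had a probe detected (scanner detection p under 0.05) on at least 4 of the 25 arrays and were tested among 11594 genes. Rpe, the ribulose phosphate epimerase, was not detected on any of the 25 arrays and has no value in any comparison.

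RNA of mouse livers was measured on Illumina bead arrays. All mice were C57BL/6J x 129Sv and carried an injected vector, with PIK3CA E545K, with PIK3CA H1047R or empty; the mutations lie in the catalytic subunit of phosphoinositide 3-kinase, which carries insulin and growth factor signals. The groups were E545K liver tumours at an age of 5 months (5 arrays), preneoplastic E545K livers of 3 months (5), preneoplastic H1047R livers of 3 months (4), a single H1047R liver of 6 months, also preneoplastic, a single H1047R liver tumour of 12 months, and normal livers with the empty vector of 6 months (5) and 3 months (4). The labels do not give the promoter of the vector, the cells that took it up, or whether the arrays of a group hold different animals. The p-values therefore describe the spread among the arrays as labelled. The tumours were younger than the 6-month controls and older than the 3-month controls, and age and condition cannot be told apart in either comparison alone. Between 14536 and 18391 probes were detected per array, and the mean of 6 hepatocyte markers was 10.35 to 11.64 on the log2 scale on all 25 arrays. This marker mean was 10.77 to 11.31 in the E545K tumours and 11.12 to 11.64 in the 6-month controls. It was lowest in the H1047R samples of 12 months (10.35) and 6 months (10.58). The probe of mouse Pik3ca was 0.57 higher in the tumours than in the 3-month controls (log2 difference, adjusted p = 0.0243) and differed by 0.10 from the 6-month controls (adjusted p = 0.771); the species of the injected sequence is not stated, so it does not check the labels.

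The pathway runs beside glycolysis. Its oxidative branch starts with the oxidation of glucose phosphate, after which the lactonase PGLS and the dehydrogenase PGD lead to ribulose phosphate; both oxidations yield NADPH. H6PD works in the endoplasmic reticulum. The isomerase RPIA and the epimerase RPE convert ribulose phosphate, and transketolase (TKT) and transaldolase (TALDO1) exchange carbon with glycolysis in either direction. PRPS1 and PRPS2 activate ribose phosphate to PRPP, from which purine, pyrimidine and NAD nucleotides are made. In the liver NADPH serves fatty acid synthesis, detoxification and the reduction of glutathione and thioredoxin.

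G6pdx and Pgd were the members higher in the E545K tumours than in each set of controls, so the sequence at their starts is shown. RefSeq gives 11 windows for the 10 members in build GRCm38.p6, each of 300 bases from 250 before to 50 after a transcript start, and 2 of them belong to Pgd. Capitals mark matches to the antioxidant response element TGACNNNGC, read on both strands; NRF2, the oxidative stress factor, is known to bind such elements.
G6pdx, chrX:74428831-74429130, minus strand: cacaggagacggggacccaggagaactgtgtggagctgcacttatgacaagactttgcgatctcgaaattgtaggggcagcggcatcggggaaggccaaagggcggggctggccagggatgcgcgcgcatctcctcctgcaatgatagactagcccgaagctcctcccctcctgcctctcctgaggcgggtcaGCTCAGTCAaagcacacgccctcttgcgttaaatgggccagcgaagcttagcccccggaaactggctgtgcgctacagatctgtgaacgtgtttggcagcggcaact
Pgd, chr4:149166656-149166955, minus strand: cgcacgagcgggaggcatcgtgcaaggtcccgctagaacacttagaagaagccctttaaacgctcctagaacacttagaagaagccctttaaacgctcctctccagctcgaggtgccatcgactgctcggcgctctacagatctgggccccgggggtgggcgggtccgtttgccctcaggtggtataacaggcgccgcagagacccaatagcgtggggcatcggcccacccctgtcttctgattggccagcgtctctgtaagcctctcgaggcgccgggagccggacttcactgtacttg
Pgd, other start, chr4:149166033-149166332, minus strand: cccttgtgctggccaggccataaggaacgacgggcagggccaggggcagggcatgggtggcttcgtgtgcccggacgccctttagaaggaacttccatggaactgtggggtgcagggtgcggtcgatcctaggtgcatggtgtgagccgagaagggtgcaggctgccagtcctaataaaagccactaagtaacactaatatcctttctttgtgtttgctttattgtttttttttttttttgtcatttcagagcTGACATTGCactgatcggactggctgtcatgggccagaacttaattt
The G6pdx match lay on the opposite strand, with its leftmost base at position -57 from the start. The window of the upstream Pgd start held no match, and that of its other start held 1 at position 4. Of 32851 RefSeq windows of this length 12.4% held such a match, and those of H6pd, Pgls, Tkt, Taldo1, Rpia, Rpe, Prps1 and Prps2 held none. None of the 11 windows held the E-box CACGTG, which 7.15% of all windows did. CCAAT, found in 37.4% of all windows on either strand, had 2 matches in the upstream Pgd window and none in that of G6pdx. These matches are letters in a window and not measured binding, and nothing on how these genes are regulated is read from them.

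**Figure D1:**
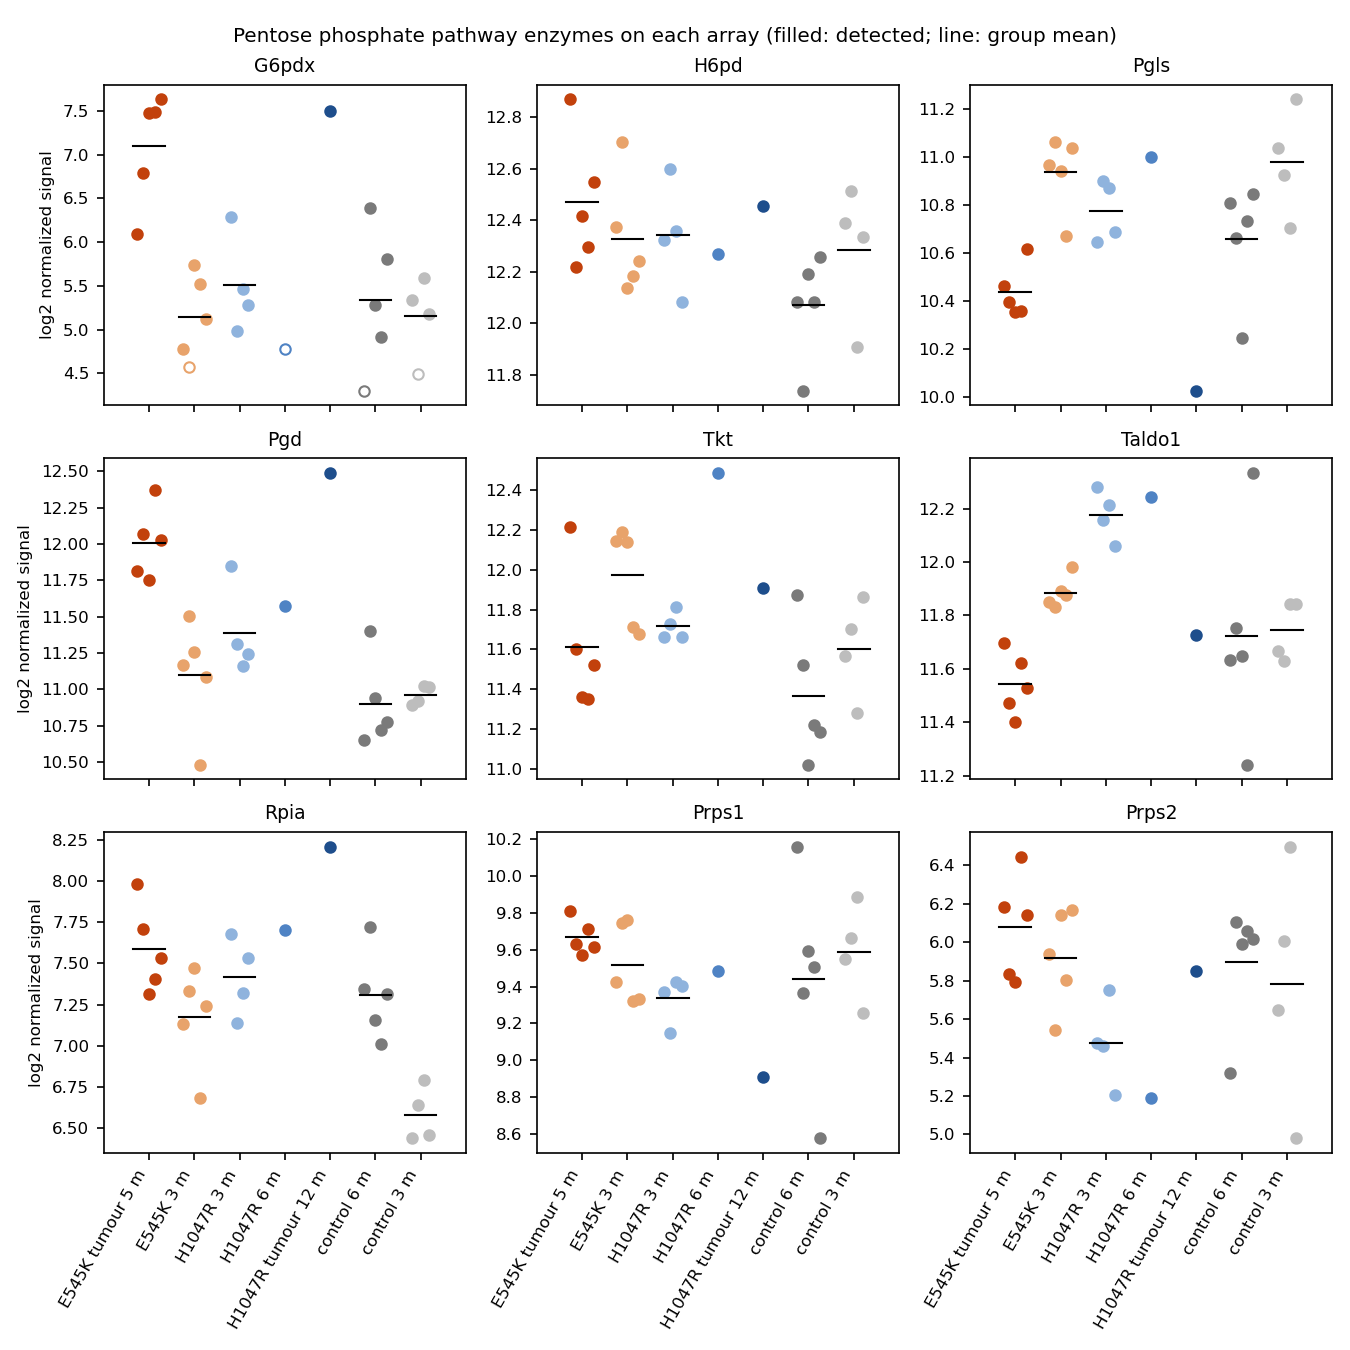
Log2 normalized signal (y axis, a scale of its own in each panel) of the 9 tested enzymes on each of the 25 arrays, by group (x axis; m stands for months of age), with filled points for detected and open points for undetected signals and a line at the mean of groups with more than 1 array. The E545K tumours stand above both control groups for Pgd, and the 3-month controls stand low for Rpia.

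In the E545K tumours the transcripts of both NADPH-forming dehydrogenases of the cytosolic oxidative branch were higher, G6pdx 3.38-fold and Pgd 2.16-fold against the 6-month controls. The lactonase Pgls between them was lower than in the 3-month controls and in the E545K livers of 3 months. Against the 6-month controls the difference of Pgls did not pass (log2 difference -0.22), and H6pd did not pass the test in any comparison. All values below are log2 normalized signals of the brightest detected probe of each gene, and differences between groups were tested with limma, with p-values adjusted over all 11594 genes and a call at an adjusted p under 0.05. In bulk liver RNA, fewer cells of a type and less RNA per cell cannot be told apart.

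G6pdx, the entry enzyme of the pathway, had log2 signals of 6.10, 6.79, 7.47, 7.48 and 7.64 in the E545K tumours. It had 4.30, 4.91, 5.29, 5.81 and 6.39 in the 6-month controls, 4.50, 5.18, 5.34 and 5.59 in the 3-month controls, and 4.57, 4.78, 5.13, 5.52 and 5.74 in the E545K livers of 3 months. The lowest tumour stood above all 3-month livers of E545K and of the controls, but 1 of the 6-month controls stood above it. The probe ran close to the detection limit outside the tumours: each array's lowest detected signal was between 4.59 and 4.93, and G6pdx was undetected in 1 array each of the 6-month controls, the 3-month controls and the 3-month E545K livers. The tumours were higher by 1.76 than the 6-month controls (SE 0.40, adjusted p = 0.00954), a fold of 3.38 (95% interval 1.85 to 6.16). They were higher by 1.94 than the 3-month controls (SE 0.33, adjusted p = 0.00103) and by 1.95 than the E545K livers of 3 months (SE 0.31, adjusted p = 0.000669). These 3 comparisons share the tumour arrays. The call against each of the 3 was kept when each array was left out in turn. Its size depends on the background subtracted from so dim a probe: without background correction the differences were 0.81 from the 6-month controls (adjusted p = 0.0168), 0.88 from the 3-month controls (adjusted p = 0.0045) and 0.87 from the E545K livers of 3 months (adjusted p = 0.00262).

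Pgd, which forms the other NADPH of the oxidative branch, had 11.76, 11.82, 12.03, 12.07 and 12.37 in the E545K tumours. It had 10.65, 10.72, 10.78, 10.94 and 11.40 in the 6-month controls, 10.89, 10.92, 11.02 and 11.02 in the 3-month controls, and 10.48, 11.09, 11.17, 11.26 and 11.51 in the E545K livers of 3 months. No tumour overlapped with an array of these 3 groups. The tumours were higher by 1.11 than the 6-month controls (SE 0.18, adjusted p = 0.00157), by 1.04 than the 3-month controls (SE 0.15, adjusted p = 0.000392) and by 0.91 than the E545K livers of 3 months (SE 0.19, adjusted p = 0.0035). The fold against the 6-month controls was 2.16 (95% interval 1.64 to 2.84).

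Pgls, the lactonase between these enzymes, had 10.35, 10.36, 10.40, 10.46 and 10.62 in the E545K tumours, against 10.71, 10.92, 11.04 and 11.24 in the 3-month controls. All tumours lay below all 3-month controls. Pgls was 0.54 lower there (log2 difference -0.54, SE 0.14, adjusted p = 0.0108) and 0.50 lower than in the E545K livers of 3 months (log2 difference -0.50, SE 0.12, adjusted p = 0.007). The 6-month controls, at 10.24, 10.66, 10.73, 10.81 and 10.85, overlapped with the tumours, and that difference did not pass (log2 difference -0.22, SE 0.15, adjusted p = 0.335). Without 3-month controls 1 and 2, known from earlier results for the highest acute-phase levels of their group, Pgls was no longer called against the 3-month controls (log2 difference -0.54, adjusted p = 0.0698).

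H6pd, the dehydrogenase of the endoplasmic reticulum, ran between 12.22 and 12.87 in the tumours, 11.74 and 12.26 in the 6-month controls and 11.91 and 12.51 in the 3-month controls. The ranges overlapped, with differences of 0.40 (SE 0.17, adjusted p = 0.113) from the 6-month controls and of 0.18 (SE 0.18, adjusted p = 0.435) from the 3-month controls.

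Counted over the members, 2 of 9 were called against the 6-month controls, both higher, where 19.9% of all genes tested were called (11% higher, 8.93% lower). Against the 3-month controls 3 were higher (G6pdx, Pgd and Rpia) and 1 lower (Pgls), where 40.4% of all genes were called (19.5% higher, 21% lower). Against the E545K livers of 3 months 2 were higher (G6pdx and Pgd) and 2 lower (Pgls and Taldo1), where 40.8% of all genes were called (19.9% higher, 20.8% lower). Of the 9 members 1, Pgd, did not overlap with the 6-month controls, as 14.6% of all genes did not. Likewise 4 members did not overlap with the 3-month controls and 4 with the E545K livers of 3 months, where the shares of all genes were 30.8% and 23.4%. The counts called in either direction stood near the shares of all genes, and nothing particular to the pathway is read from them. The median log2 difference of the 9 members from the 6-month controls was 0.25, and that of all genes was -0.02.

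**Figure D2:**
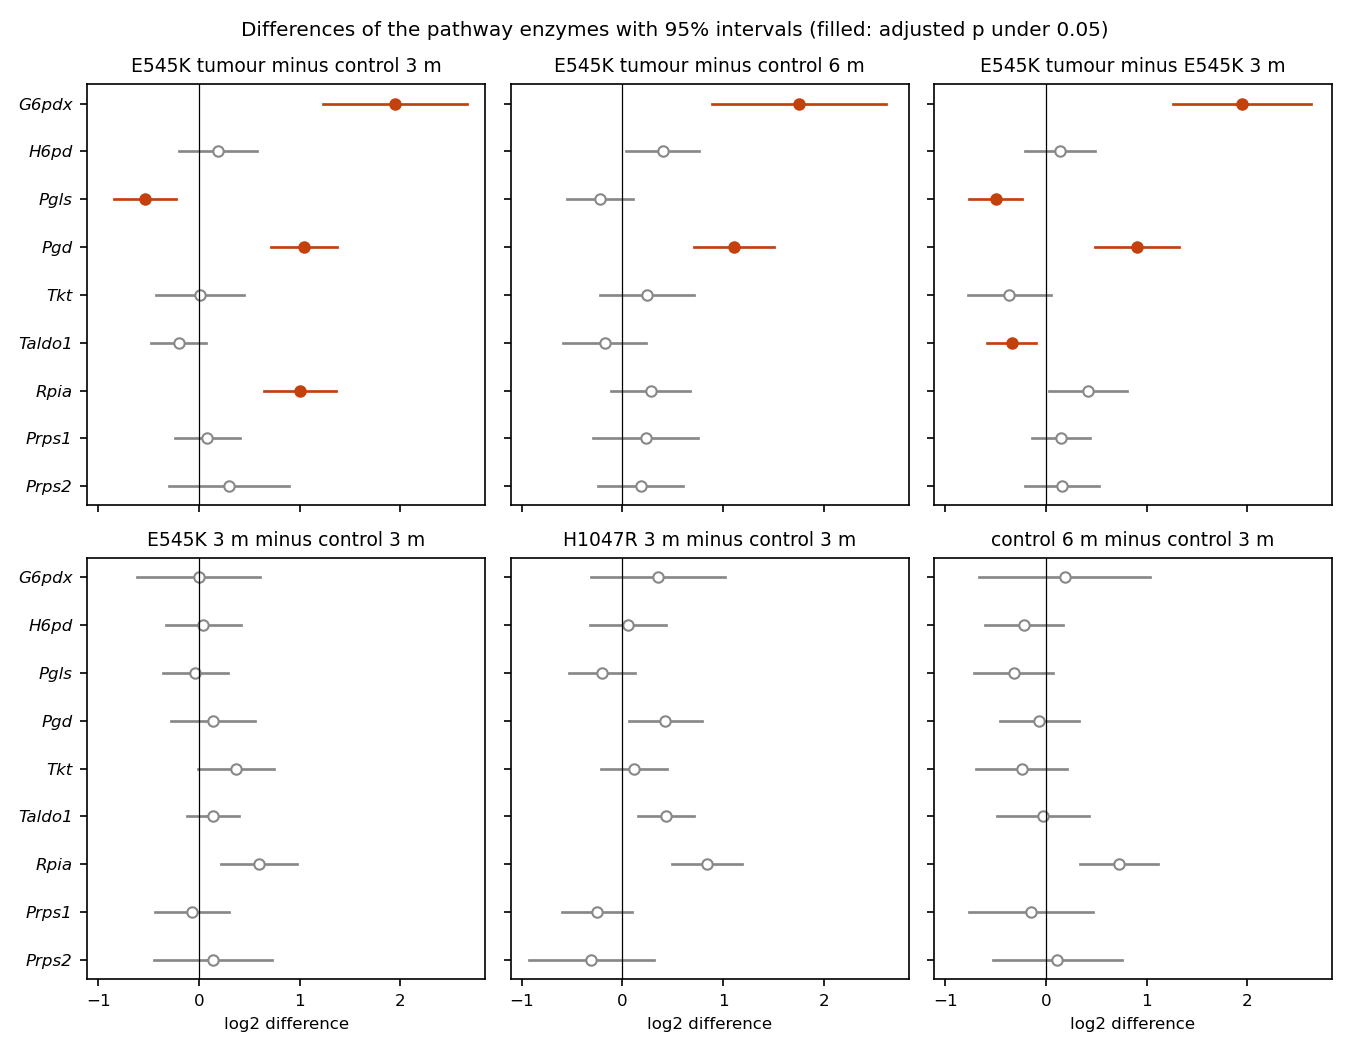
Log2 differences (x axis) of the 9 tested enzymes (y axis) in 6 comparisons, as points with 95% intervals, filled where the adjusted p was under 0.05. G6pdx and Pgd are filled in all 3 panels of the E545K tumours, and no enzyme is filled in the 3 panels of the 3-month livers and of the controls.

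The non-oxidative branch had no member called against the 6-month controls on its brightest probes. Rpia, which turns ribulose phosphate into ribose phosphate, had 7.31, 7.41, 7.53, 7.71 and 7.98 in the E545K tumours and 7.01, 7.16, 7.31, 7.35 and 7.72 in the 6-month controls. These ranges overlapped and the difference of 0.28 did not pass (SE 0.18, adjusted p = 0.309). The 3-month controls, at 6.44, 6.46, 6.64 and 6.79, lay below all tumours, by 1.01 (SE 0.16, adjusted p = 0.000845; 0.61 without background correction, adjusted p = 0.00162), and below all 6-month controls as well. That difference between the controls of both ages was 0.73 (SE 0.18) with an adjusted p = 0.348, which did not pass.

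Tkt, which moves carbon pairs between sugars, had 11.35, 11.36, 11.52, 11.60 and 12.21 in the E545K tumours, against 11.02, 11.18, 11.22, 11.52 and 11.87 in the 6-month controls and 11.28, 11.57, 11.70 and 11.86 in the 3-month controls. All ranges overlapped, and 1 tumour stood above the rest. The differences were 0.25 from the 6-month controls (SE 0.21, adjusted p = 0.457) and 0.01 from the 3-month controls (SE 0.20, adjusted p = 0.978). Against the E545K livers of 3 months, at 11.68 to 12.19, the difference was -0.36 (SE 0.19, adjusted p = 0.144), and without that tumour Tkt was called lower (-0.51, adjusted p = 0.0183). With the mean of its detected probes the sign of that difference turned (0.10, adjusted p = 0.591). That mean takes in a dim probe, described next, which passed the detection filter only through the tumours. Nothing on the direction of Tkt is read from the turn.

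A dim probe of Tkt gave another picture. It was detected on 5 of 5 tumours, at 4.69, 4.76, 5.08, 5.13 and 5.26, and on the H1047R tumour of 12 months, at 5.07. The 6-month controls (0 of 5), the 3-month controls (0 of 4) and the E545K livers of 3 months (0 of 5) did not detect it. The dim probe passed the detection filter only through the tumours, so it had to differ. Where no array of a group detected a probe, the fold is a lower bound, taken from the lowest signal that those arrays could detect. The dim probe was at least 1.12-fold higher in the tumours than in the 6-month controls and at least 1.17-fold higher than in the 3-month controls, given as a description with no test. The remaining Tkt probe was detected on 3 of the 25 arrays, all of them tumours, and was not tested.

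Taldo1, which moves a carbon triplet, had 11.40, 11.47, 11.53, 11.62 and 11.70 on its bright probe in the E545K tumours, against 11.24, 11.63, 11.65, 11.75 and 12.33 in the 6-month controls. The difference of -0.18 did not pass (SE 0.19, adjusted p = 0.559), nor did that of -0.20 from the 3-month controls (SE 0.12, adjusted p = 0.222). All tumours lay below the 11.83 to 11.98 of the E545K livers of 3 months, by -0.34 (SE 0.11, adjusted p = 0.0269). This call ended without tumour 2, 3 or 5 or without 3-month E545K liver 3 or 5 (adjusted p of 0.0525 to 0.0678).

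The other Taldo1 probe fell further. It had 6.01, 6.55, 6.60, 6.93 and 7.46 in the tumours, against 7.33, 7.53, 7.73, 8.04 and 9.05 in the 6-month controls and 7.13, 7.64, 7.996 and 8.47 in the 3-month controls. Only the highest tumour overlapped with the controls. Among all detected probes it was lower by -1.23 than in the 6-month controls (SE 0.34, adjusted p = 0.0304) and by -1.10 than in the 3-month controls (SE 0.31, adjusted p = 0.0168). With the mean of both probes Taldo1 would be called lower against each (-0.70, adjusted p = 0.0394, and -0.65, adjusted p = 0.0175). Which transcripts the Tkt and Taldo1 probes read was not analysed here.

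**Figure D3:**
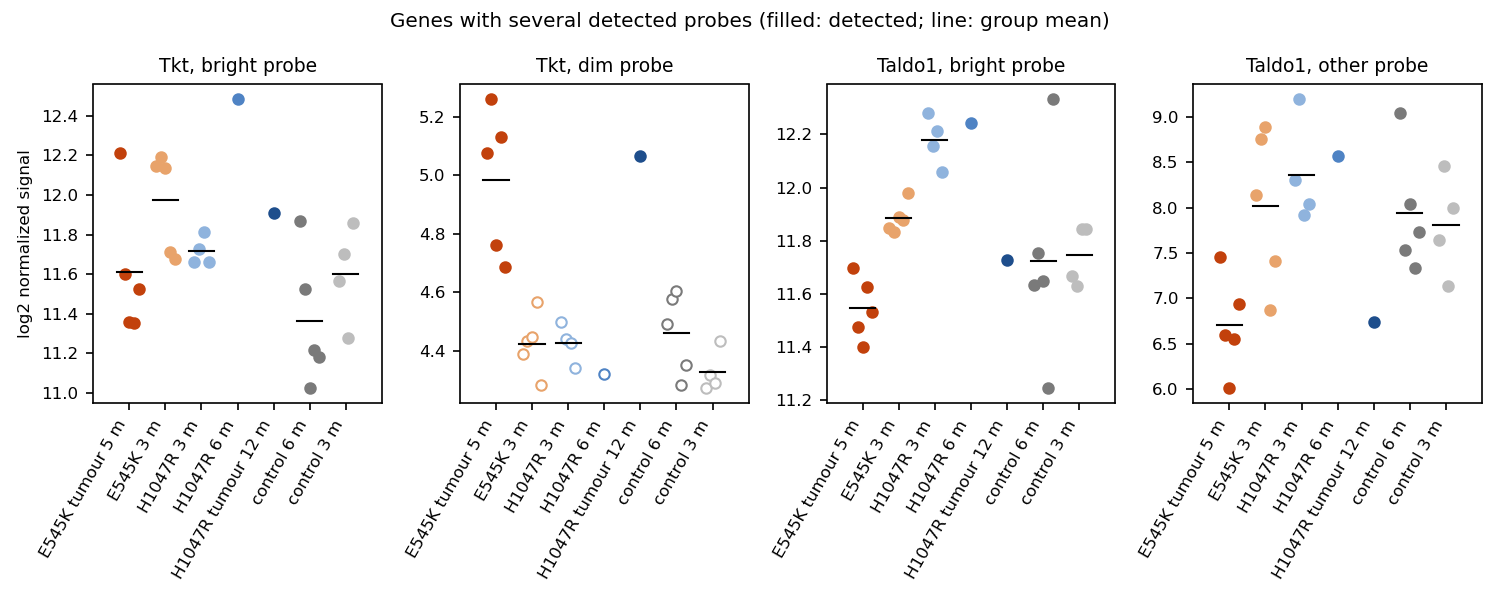
Log2 normalized signal (y axis, a scale of its own in each panel) of the 2 Tkt and 2 Taldo1 probes that passed the detection filter, on each array by group (x axis; m stands for months of age), filled where detected, with a line at the group mean. The dim Tkt probe is filled in the 6 tumours and open elsewhere, and the other Taldo1 probe is lower in the tumours while its bright probe overlaps with the controls.

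The PRPP synthetases did not pass in any comparison. Prps1 had 9.57 to 9.81 in the E545K tumours, 8.58 to 10.16 in the 6-month controls and 9.26 to 9.88 in the 3-month controls, with a difference of 0.23 from the 6-month controls (SE 0.24, adjusted p = 0.551). The interval, -0.30 to 0.76, spans both directions. Prps2 had 5.79 to 6.45 in the tumours, 5.32 to 6.10 in the 6-month controls and 4.98 to 6.50 in the 3-month controls, with a difference of 0.18 from the 6-month controls (SE 0.19, adjusted p = 0.555).

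At 3 months neither mutation gave a called member in limma's test. In the E545K livers 0 of 9 passed against the 3-month controls, where 0.00863% of all genes were called. Of the 9 members 1 (11.1%), Rpia, had an unadjusted p under 0.05, against 4.62% of all genes. No member was free of overlap, and 1.67% of all genes were. Rpia had 6.68, 7.13, 7.24, 7.33 and 7.47 in the E545K livers, against 6.44 to 6.79 in the controls, with a difference of 0.59 (SE 0.17, adjusted p = 0.909). G6pdx differed by 0.00 (SE 0.28), with an interval of -0.61 to 0.61, and Pgd by 0.14 (SE 0.19), with an interval of -0.28 to 0.55.

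In the H1047R livers of 3 months 0 of 9 members passed against the 3-month controls, where 0% of all genes were called. An unadjusted p under 0.05 was found for 3 of 9 (33.3%), against 7% of all genes. These 3 did not overlap with the controls, against 3.8% of all genes. With 9 members and no set test, nothing particular to the pathway is read from these shares. Rpia had 7.14, 7.32, 7.53 and 7.68 in the H1047R livers, against 6.44, 6.46, 6.64 and 6.79 in the controls, a difference of 0.84 (SE 0.16, adjusted p = 0.428). Taldo1 had 12.06, 12.16, 12.21 and 12.28 on its bright probe, against 11.63, 11.67, 11.84 and 11.84 in the controls, a difference of 0.43 (SE 0.12, adjusted p = 0.569). Pgd had 11.16, 11.24, 11.31 and 11.85, against 10.89 to 11.02 in the controls, a difference of 0.43 (SE 0.16, adjusted p = 0.692). H1047R liver 1 held the highest Pgd, Rpia, Taldo1 and G6pdx (6.29) of its group. The same liver had the highest mean of neutrophil markers of the 4 (7.12, against 4.77 to 5.996 in the other 3) and of macrophage markers (7.77, against 6.43 to 7.60), and the part of these cells in its values was not tested.

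Set against each other at 3 months, the E545K and the H1047R livers had 0 of 9 members called, where 0% of all genes were called. They had 2 of 9 (22.2%) with an unadjusted p under 0.05, against 6.15% of all genes, and nothing is read from so few members. Taldo1 had 11.83 to 11.98 in the E545K livers and 12.06 to 12.28 in the H1047R livers, which did not overlap, as 2.27% of all genes did not (difference -0.29, SE 0.11, adjusted p = 0.732). Prps2 had 5.55 to 6.17 in the E545K livers and 5.20 to 5.75 in the H1047R livers (difference 0.45, SE 0.17, adjusted p = 0.723). Between the 6-month and the 3-month controls 0 of 9 members were called, where 0.0173% of all genes were, and 1, Rpia, had an unadjusted p under 0.05, as 10.7% of all genes had, and did not overlap, as 3.36% of all genes did not. Without the arrays with the highest skeletal muscle markers (H1047R liver 2 and 3-month control 4), 0 members were called in these comparisons as well.

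The H1047R samples of later ages were a preneoplastic liver of 6 months and a tumour of 12 months, each without a replicate. Pgd had 12.49 in the 12-month tumour and 11.57 in the 6-month liver, above all 5 of the 6-month controls (10.65 to 11.40). G6pdx had 7.49 in the 12-month tumour, within the range of the E545K tumours, and was undetected in the 6-month liver at 4.78. Rpia had 8.21 in the 12-month tumour, the highest of the 25 arrays, and 7.70 in the 6-month liver. Pgls had 10.03 in the 12-month tumour, the lowest of the 25 arrays, and lay in the 6-month liver within the 10.67 to 11.06 of the E545K livers of 3 months. Tkt had 11.91 in the 12-month tumour and 12.49 in the 6-month liver, the highest of the 25 arrays. Joined as 1 group (n = 2) and set against the 6-month controls, the 2 samples had 0 of 9 members called, where 0.0431% of all genes were called. An unadjusted p under 0.05 was found for Pgd, Tkt and Rpia (33.3% of members), against 8.94% of all genes. Nothing particular to the pathway is read from so few members. Pgd, Tkt and H6pd (12.45 in the 12-month tumour and 12.27 in the 6-month liver) stood above all 5 controls, and 11.7% of all genes did not overlap. Pgd was 1.13 higher (SE 0.33, adjusted p = 0.389). The 12-month tumour alone against the 6-month controls, with its spread assumed to be that of the controls, gave Pgd a difference of 1.59 (adjusted p = 0.0378).

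The change of E545K from 3-month livers to tumours of 5 months was also set against the change of the controls from 3 to 6 months, which removes a shift with age as far as the controls show it. G6pdx had a difference of these changes of 1.76 (SE 0.53, adjusted p = 0.0327) and Pgd of 0.97 (SE 0.26, adjusted p = 0.0195). The other 7 tested members did not pass, and over all genes 12.6% were called (7.59% higher, 4.97% lower). Without background correction the value of G6pdx was 0.80 (adjusted p = 0.029). Without 3-month controls 1 and 2 neither was called, with differences that were no smaller (1.995, adjusted p = 0.0587, for G6pdx and 1.03, adjusted p = 0.0626, for Pgd), and the G6pdx call ended when tumour 3, 4 or 5, 3-month E545K liver 1 or 2, 6-month control 1 or 4, or 3-month control 1, 3 or 4 was left out (adjusted p of 0.0511 to 0.0734). The authors' deposited table named for the tumours against the 3-month controls held the differences from the 6-month controls: its values correlated with them at 0.99983 over the probes, and with those from the 3-month controls at 0.886. In the authors' deposited table G6pdx had a log2 difference of 1.78 (adjusted p = 0.00363) and Pgd of 1.09 (adjusted p = 0.000193). In the authors' deposited table the other Taldo1 probe had -1.23 (adjusted p = 0.0599) and the bright Tkt probe 0.24 (adjusted p = 0.491). The dim Tkt probe had 0.56 there, again a description with no test, as no control array detected it.

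Across the arrays the levels of G6pdx and Pgd had a correlation of 0.76 over 25 arrays and of 0.27 over the 19 arrays that were not tumours. Pgd and Rpia had 0.71 over 25 arrays and 0.62 over these 19. All arrays were normalized together, so these values share that step, and no p is given. The genes most like G6pdx over 25 arrays were Abhd5, a lipase co-activator of lipid droplets (r = 0.93, and 0.77 over the 19), Antxr2, an anthrax toxin receptor (0.93, and 0.78), and Capns1, a calpain subunit (0.93, and 0.76). Those most like Pgd were Dbndd2 (0.89, and 0.62), Ddit4, a stress-induced inhibitor of mTOR (0.89, and 0.59), and Haus8, a subunit of augmin (0.88, and 0.60). Tkt was most like Atxn2, an RNA-binding protein (0.85, and 0.87), Trps1, a GATA-type repressor (0.81, and 0.84), and Med15 of the Mediator complex (0.81, and 0.80). Taldo1 was most like Aagab (0.78, and 0.80), Slc25a10, the mitochondrial dicarboxylate carrier (0.77, and 0.75), and Lmtk2, a kinase (0.77, and 0.77).

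Connected genes were taken from fixed lists, which were chosen with earlier results of these data known. They were counted in the E545K tumours against the 6-month controls, to be read against the 19.9% called over all genes. Of 18 tested further genes of the pathway and its links to glycolysis 1 was higher and 1 lower (median -0.17). Pfkp, a phosphofructokinase, had 4.95 to 7.17 in the tumours, where 5 of 5 arrays detected it, against 4.25 to 4.89 in the controls, where 1 of 5 did. It passed the detection filter only through these tumours, so it had to differ and its place among the called genes is no test. Rgn, a lactonase that cleaves gluconolactone, had -2.22 (adjusted p = 0.00129). The other 7 genes of that list, among them Tktl1, Tktl2 and Tigar, were not tested.

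Of 11 tested other enzymes that form NADPH 1 was higher and 2 were lower (median 0.14). Aldh1l2, the mitochondrial formyltetrahydrofolate dehydrogenase, had 2.32 (adjusted p = 0.0139) and was detected on 5 of 5 tumours and 2 of 5 controls. Without background correction it was not called (1.09, adjusted p = 0.07). Its other probe had a smaller difference that did not pass (0.64, adjusted p = 0.0673). Me1, the cytosolic malic enzyme, was lower, at 7.60 to 9.07 in the tumours against 9.24 to 11.40 in the controls (difference -1.77, adjusted p = 0.00954). Mthfd1, the cytosolic folate dehydrogenase, had -0.93 (adjusted p = 0.00972), while its other probe had -0.44 (adjusted p = 0.508) there and was higher than in the 3-month controls (1.004, adjusted p = 0.0208), so its direction depends on the probe.

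Of 11 tested genes of NADPH-using reductases and peroxide defence 6 were higher and 2 lower (median 0.66). Cbr3, a carbonyl reductase, had 8.80 to 11.98 in the tumours against 4.94 to 5.66 in the controls (difference 5.38, adjusted p = 5.68e-05). Cbr1 had 1.72 (adjusted p = 0.000249) and the quinone reductase Nqo1 2.32 (adjusted p = 0.0014). Txnrd3, a thioredoxin reductase, had -0.91 (adjusted p = 0.00163). The list also holds genes of glutathione supply, the cystine carrier Slc7a11 among them, which do not use NADPH themselves. Slc7a11, among the 6 higher genes, averaged 8.19 in the tumours and 4.29 in the 6-month controls. That control mean lay below the lowest detected signal of every array (4.59 to 4.93), so its call is a description and no test.

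Of 11 tested genes of fatty acid synthesis 2 were higher and 2 lower (median -0.17). Scd2, a desaturase, had 5.98 to 7.67 in the tumours, where 5 of 5 arrays detected it, against 4.24 to 4.93 in the controls, where 1 of 5 did. Without these tumours Scd2 would not have passed the detection filter, so it had to differ and its place among the called genes is no test. Pnpla3, a lipid droplet acyltransferase or lipase, had 2.75 (adjusted p = 0.0271), and its call ended without tumour 4 or 5 or 6-month control 1, 3 or 5 (adjusted p of 0.0541 to 0.0644). Pnpla3 was also not called without background correction (1.65, adjusted p = 0.0605), with the authors' processed values (1.71, adjusted p = 0.0565) or without a detection filter (adjusted p = 0.0767). Acacb, the mitochondrial acetyl-CoA carboxylase, had -1.45 (adjusted p = 0.00705), and Mlxipl, the glucose-responsive factor ChREBP, -1.45 (adjusted p = 0.00798). Of 20 genes that make or salvage purines, pyrimidines and NAD from PRPP 1 was higher, Impdh1 of guanine nucleotide synthesis (0.96, adjusted p = 0.0256, detected on 5 of 5 tumours and 2 of 5 controls). Of these 20, 1 was lower, Ppat, which opens purine synthesis (-0.57, adjusted p = 0.04), and 18 did not pass. The call of Impdh1 ended without tumour 3 or 5 or 6-month control 2, 3 or 5 (adjusted p of 0.0502 to 0.067), and that of Ppat without any of the tumours but tumour 2 or any of the controls but control 5 (adjusted p of 0.0521 to 0.0935).

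**Figure D4:**
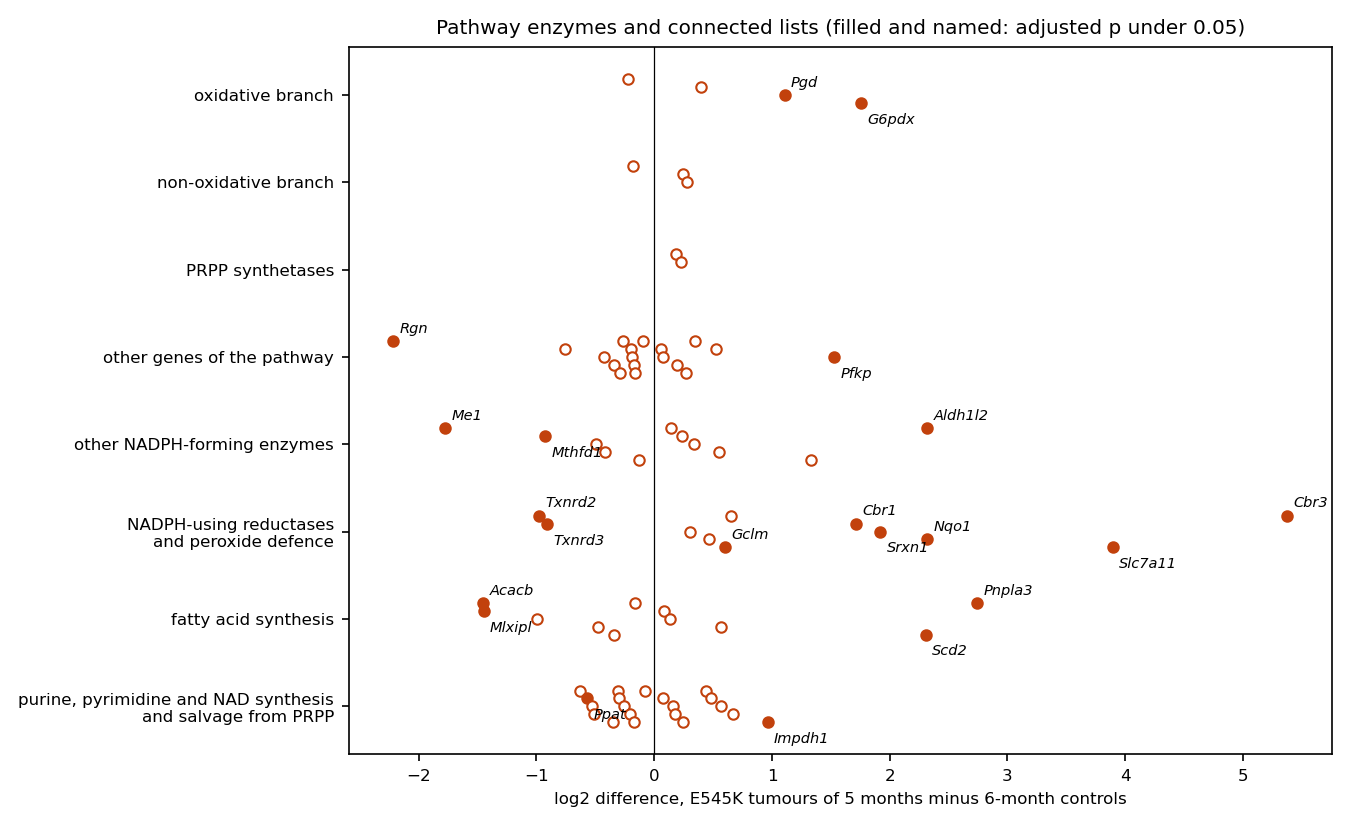
Log2 differences between the E545K tumours and the 6-month controls (x axis) of the pathway enzymes and of the connected lists (y axis, points spread for reading), filled and named where the adjusted p was under 0.05. G6pdx and Pgd are the filled points of the pathway proper, and the reductases and peroxide defence genes hold 8 filled points, 6 of them higher. Slc7a11, among these higher points, had a control mean below the lowest detected signal of every array.

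Markers of other cells moved with the tumours. The mean of 9 macrophage markers was 7.56 to 9.32 in the E545K tumours, against 6.24 to 7.84 in the 6-month controls and 6.54 to 7.63 in the 3-month controls, and 5 of 9 were called higher against each. Within the tumours it was highest, at 9.32, in tumour 1, which had the lowest G6pdx (6.10) and the highest Tkt (12.21). The mean of the 2 tested of 6 neutrophil markers, S100a8 and S100a9, was 5.93 to 8.21 in the tumours, against 4.61 to 6.99 in the 6-month controls and 4.92 to 5.59 in the 3-month controls, and was likewise highest in tumour 1. Both were called higher against the 3-month controls and against the E545K livers of 3 months and neither against the 6-month controls, while Ngp, Camp, Ly6g and Mpo were not detected. Of 7 stellate cell and fibroblast markers 2, Col1a1 and Col3a1, were called higher against the 6-month controls. Against the 3-month controls 1 was called higher and 3 lower, the called markers being Dcn, Lrat, Des and Lum. Against the E545K livers of 3 months 1 was higher and 1 lower, with Col3a1 and Lrat called. The mean of the 3 tested of 5 biliary markers was 7.93 to 9.54 in the tumours, against 6.81 to 8.05 in the 6-month controls, with Sox9 and Spp1 called and Krt19 and Epcam not detected. The mean of the 2 tested of 4 adipocyte markers, Adipoq and Cfd, was 4.37 to 4.71 in the tumours, against 5.26 to 7.48 in the 6-month controls. Both were called lower against the 3-month controls but only Cfd against the 6-month controls, while Plin1 and Retn were not detected. Of 6 hepatocyte markers 1, Tat, was called lower in the E545K tumours than in each set of controls. The part of all these cells in the results on the pathway was not tested. The mean of skeletal muscle markers was 4.32 to 4.46 in the tumours, against 5.05 to 10.72 in the 3-month controls, and without the 3-month control of 10.72 the members called against these controls numbered 4 as before.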

How the data were processed

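RNA was copied into biotin-labelled cRNA and measured on Illumina arrays, per the labels' protocols. Per the file headers, the unnormalized table pairs each array's linear intensity with a detection p-value. A processed table deposited by the authors has linear intensities with equal medians (104.783 to 104.847), by a method that the sources used here do not give. Comparison tables deposited by the authors hold log2 differences, mean log2 values and p-values in limma's columns. The table named for the tumours against the 3-month controls matched the tumours minus the 6-month controls, and the other 3 matched their names, as checked on the values.

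Signals of 25 arrays were normalized together with neqc of limma 3.58.1 (R 4.3.3; files were read with the data.table package, version 1.17.8), which estimated the background from detection p and added an offset of 16. Kept were the 20349 probes (16981 with a symbol) whose detection p was under 0.05 on 4 or more arrays, and the brightest stood for each of 11594 genes. Symbols came from the authors' tables and were updated through RefSeq by Entrez identifier (33509 of 33778 matched, 658 changed). Each comparison was a limma fit (lmFit, eBayes) to its own groups, tested on simulated data, with Benjamini-Hochberg adjustment over all genes. Single probes were adjusted over 20349 probes. Array medians of 87.6 to 117 and the number of arrays limit the precision.

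The members, lists and alternatives were chosen with earlier results of these data known. All 10 members are named everywhere, of other lists the up to 4 called genes of smallest p, and for 4 members the 3 genes of highest correlation. Rpe was left out of the tests as undetected. Same-numbered samples of different groups had correlations of -0.38 to 0.462 in their deviations, and in no pair of groups were all above 0.1. The numbers were therefore not used as pairs, though this rule cannot exclude that they pair some samples. Figures were drawn with matplotlib 3.10.9.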

Additional observations from a re-analysis of the deposited data

Results flagged for a closer look

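Tkt in E545K tumour 1 was 12.214, apart from the 11.352 to 11.602 of the other 4 tumours. Prps2 in 6-month control 1 was 5.3214, below the 5.9886 to 6.104 of the other 4 controls. Such a lone array was looked for in 55 groups of 4 or 5 arrays and found in these 2, and chance alone gives about 1 in 20 groups.

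The change of E545K from 3-month livers to tumours exceeded that of the controls from 3 to 6 months by 1.76 for G6pdx (SE 0.53, limma adjusted p = 0.0327) and by 0.9706 for Pgd (SE 0.26, limma adjusted p = 0.0195). The dim Tkt probe, which does not stand for its gene, averaged 4.983 in the E545K tumours, where it was detected on 5 of 5, against 4.2709 to 4.6046 on the control arrays, where it was detected on none.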

How the results depend on the processing

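Against the 6-month controls G6pdx and Pgd were called under all 19 alternatives, and against the 3-month controls G6pdx, Pgd and Rpia under all 20. Without background correction, or with the authors' processed values, G6pdx differences were 0.81 or 0.86 against the 6-month controls and 0.88 or 0.94 against the 3-month controls, and the same settings made those of the dim genes Rgn, Pfkp, Txnrd3, Nqo1, Scd2, Ppat and Impdh1 smaller with their calls kept (without background correction, Scd2 0.92, Nqo1 1.18 and Impdh1 0.33). Aldh1l2 and Pnpla3 lost theirs under both settings. For Pfkp and Scd2, which passed the detection filter only through the E545K tumours, a kept call is no test. The counts of called members were 2 and 4 in each fit that left out 1 array, and 3 to 5 against the E545K livers of 3 months. For the late H1047R livers the count of 0 became 2 in a single fit of all 25 arrays (Pgd, adjusted p = 0.0033, and Tkt, adjusted p = 0.0266) and 0 to 1 when arrays were left out. For the difference of changes the count of 2 became 1 without a detection filter, 1 without the arrays of highest skeletal muscle markers (chosen after seeing the data), 0 without 3-month controls 1 and 2, and 1 to 2 when single arrays were left out. Mthfd1 against the 3-month controls turned to 0.1399 (adjusted p = 0.647) with the mean of its probes. Replicate numbers, for which a pairing of samples was not shown, were also fitted as a replicate block. The block ended the call of Taldo1 against the E545K livers of 3 months (adjusted p = 0.0739). It also ended that of Ppat against the 6-month controls (adjusted p = 0.0616), and changed no other call of a member. A single fit of all arrays also ended that Taldo1 call (adjusted p = 0.0587). The block could not be fitted for the late H1047R livers, which share 1 number with the controls. Over all genes, the 4689 called against the 3-month controls became 2810 without controls 1 and 2, the 5 of the late H1047R livers became 1097 in the single fit and 839 without the 6-month liver, the 1456 of the difference of changes became 765 without controls 1 and 2, and testing every probe on its own gave 8093 and 7917 calls where genes gave 4689 and 4725. Counts of 0 to 2 genes in the 3-month and control comparisons moved within 0 to 2. In the fit that joined the 2 late H1047R samples, the difference between them counted as spread. Without the 6-month liver 1 late H1047R array was left, so the spread was measured among the controls alone. The single fit took its spread from all 25 arrays. The larger counts of these fits, and the Pgd and Tkt calls of the single fit, are therefore not read as a gain. The cause of the shifts was not tested further, apart from the larger number of tests with every probe. Chip as a block was not run, as no chip of an array is given in the sources used here.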
